A study of Mus musculus with 6 samples.

Results

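The genes described here encode the proteins of the mitochondrial ribosome, the Mrpl genes of its large subunit and the Mrps genes of its small subunit. Members were the genes whose probe sets carried exactly 1 gene symbol beginning with Mrpl or Mrps and a digit, with the probe set of the highest mean over all arrays standing for a gene that had more than 1. There were 77 such genes, 48 of the large and 29 of the small subunit, among 19938 genes tested. The study compared mouse embryonic stem (ES) cells grown with vitamin C and the same cells left untreated. All cells were of 1 line, Oct4-GiP, which carries an Oct4 reporter, and both groups grew on gelatin in N2B27 medium with 1000 U/ml of the cytokine LIF, 1 μM of the MEK inhibitor PD0325901 and 3 μM of the GSK3β inhibitor CHIR99021. The vitamin C cells also received L-ascorbic acid 2-phosphate, a stable phosphate ester of ascorbic acid, at 200 μg/ml for 72 hours, and 3 arrays of each group, from replicates that the design text calls biological, were hybridised.

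Mitochondria translate the few proteins that their own genome encodes, which are core subunits of the respiratory chain and of ATP synthase, on ribosomes of their own. The rRNAs of these ribosomes come from mitochondrial DNA, but every ribosomal protein is encoded in the nucleus, made in the cytosol and imported. The lower numbers in the names mostly mark proteins with a bacterial counterpart of the same number, and the higher numbers mostly mark proteins added in the mitochondrial lineage. In ES cells, mitochondria are often described as immature, with much of the energy coming from glycolysis.

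Values are the deposited log2 signals, and a difference is the vitamin C mean minus the untreated mean with the moderated standard error (SE) from limma. A gene passed the test at an adjusted p under 0.05 (Benjamini-Hochberg over all 19938 genes). Signals of different probe sets are not levels that can be set against each other, and on bulk RNA fewer cells of a type and less RNA per cell cannot be told apart. The members' mean signals over all arrays lay between 7.23 (Mrps27) and 10.95 (Mrps28), and all 77 lay above the median gene, so no member was lost to a filter on dim signals. Array medians over all probe sets were 5.56 to 5.60 with vitamin C and 5.52 to 5.55 untreated. Correlations between arrays were 0.995 to 0.996 within groups and 0.989 to 0.990 between groups, so no array stood apart from its group.

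Most mitochondrial ribosomal protein genes did not pass the test with vitamin C, and those that did changed in both directions. Of the 77 members, 4 were higher, 6 were lower and 67 did not pass. Thus 13.0% of the members were called, against a background of 13.2% of all genes in either direction, 5.75% higher and 7.4% lower, and of 22.4% among the 5782 genes whose mean signal lay in the members' range. The members' share was near the background of all genes, and nothing about the family is read from it. The median log2 difference was -0.046 over the 77 members, 0.012 over all genes and -0.037 over the genes in the same range of signal. The differences were small throughout. A difference of at least 1.25-fold was measured for 6 members (7.79%), against 13.3% of all genes, and none reached 1.5-fold, against 3.19% of all genes. The 95% interval stayed within a change of 1.5-fold for 76 of 77 members, Mrpl9 being the exception, and within 1.25-fold for 55. The 67 members that did not pass therefore include none whose interval reaches 1.5-fold. The 3 arrays of the groups did not overlap for 37 of the 77 members. Of these, 14 had the higher and 23 the lower signals in the vitamin C arrays. The same held for 6985 of all 19938 genes (35%) and for 3250 of the 5782 genes in the members' range of signal. Nothing about the family is read from this count.

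**Figure D1:**
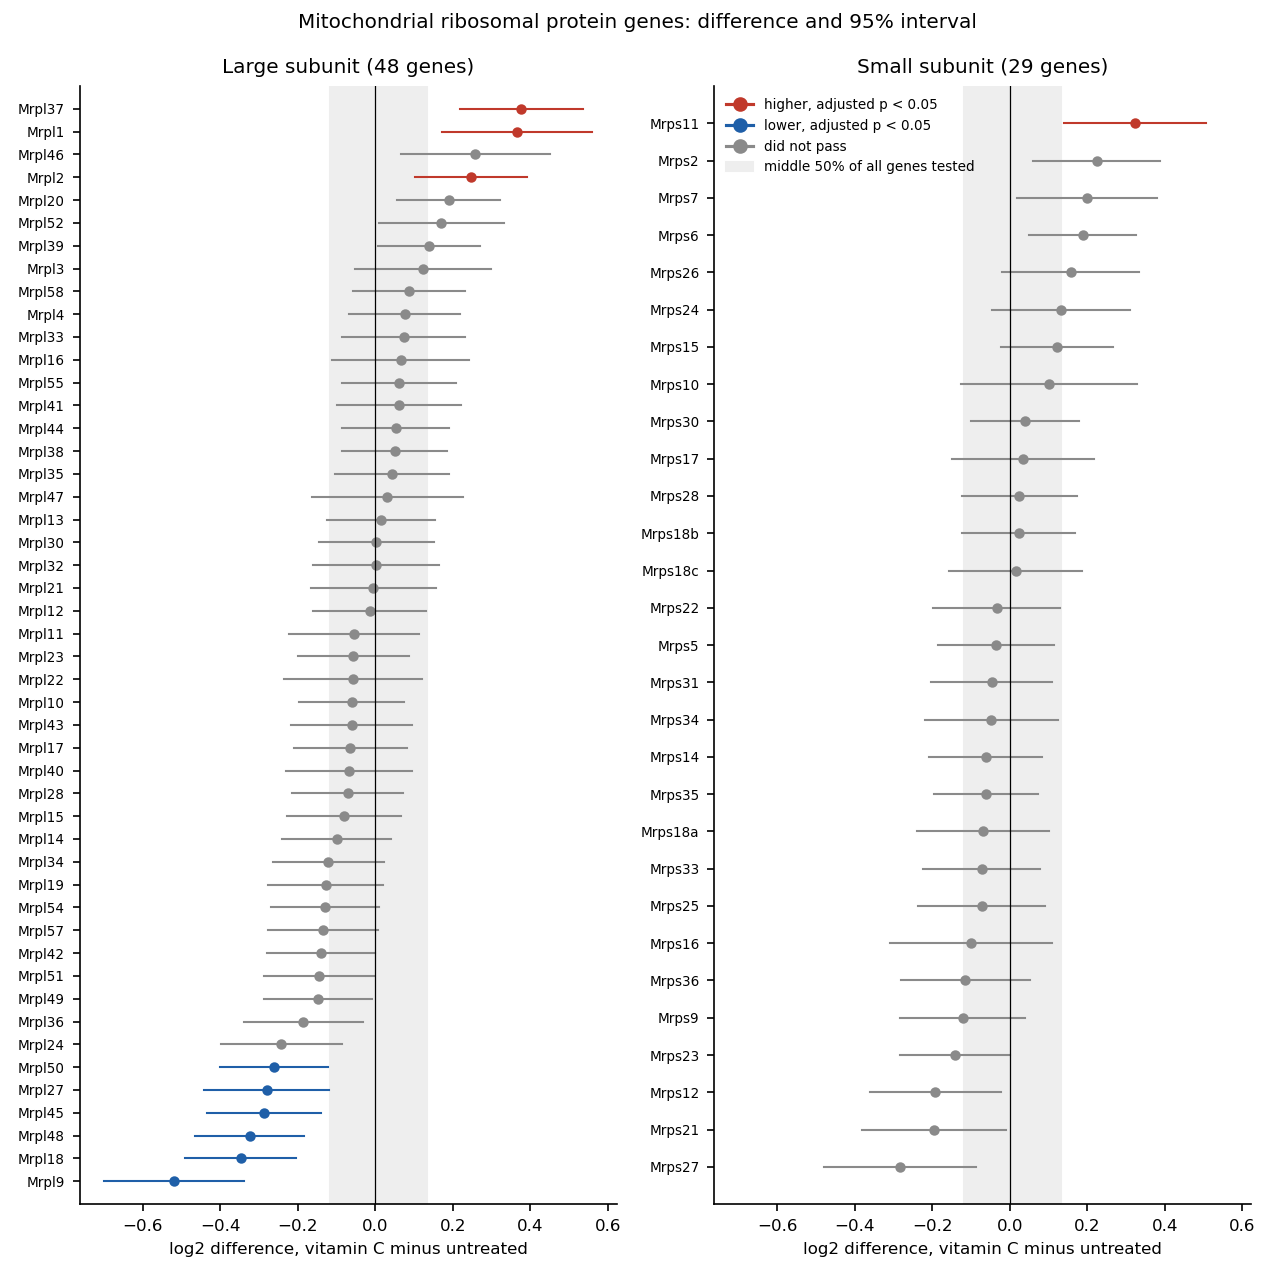
Difference of each member, vitamin C minus untreated on the log2 scale, with its 95% interval (points and lines), for the large subunit on the left and the small subunit on the right. Coloured points passed the limma test, and the grey band holds the middle 50% of all genes tested. The intervals of 76 of the 77 members stay within a 1.5-fold change, and the called members lie toward both ends of the order.

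In the large subunit 3 members were higher, 6 were lower and 39 did not pass. Thus 18.75% were called, beside 13.2% of all genes and 22.4% of the genes in the members' range of signal. The median difference was -0.056, with the middle 50% of members between -0.13 and 0.062. The largest difference was that of Mrpl9, a counterpart of a bacterial protein that lies at the base of the ribosome's L1 stalk. Its signals were 7.15, 7.27 and 7.40 in the vitamin C arrays, against 7.76, 7.79 and 7.83 in the untreated arrays. The groups did not overlap, and the vitamin C arrays spread more widely than the untreated ones. Mrpl9 fell by 0.52 ± 0.077 (SE), or 1.43-fold (limma, adjusted p = 0.00659).

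Mrpl18, the counterpart of the bacterial protein that carries the 5S rRNA, had signals of 9.9816, 10.0002 and 9.9079 with vitamin C and of 10.3116, 10.2759 and 10.3471 untreated. All vitamin C arrays lay below all untreated arrays, and the difference was -0.35 ± 0.061 (SE; limma, adjusted p = 0.0114). Mrpl48, a protein of the central protuberance with no bacterial counterpart, had 7.91, 7.90 and 7.92 with vitamin C against 8.20, 8.21 and 8.30 untreated. Its vitamin C arrays were the tightest of the 10 called members, and the difference was -0.32 ± 0.060 (SE; limma, adjusted p = 0.0140). The call of Mrpl48 was lost without untreated replicate 3 (adjusted p = 0.0507). Those of Mrpl9 and Mrpl18 held with each of the 6 arrays left out.

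The other 3 that fell had smaller differences. Mrpl45, which in human mitochondria sits at the polypeptide exit tunnel next to the inner membrane, had 8.89, 8.77 and 8.79 with vitamin C against 9.13, 9.10 and 9.07 untreated (-0.29 ± 0.063, SE; limma, adjusted p = 0.0249). Mrpl27, whose bacterial counterpart reaches toward the peptidyl transferase centre, had 8.55, 8.49 and 8.55 with vitamin C against 8.74, 8.78 and 8.91 untreated (-0.28 ± 0.069, SE; limma, adjusted p = 0.0385). Mrpl50, a protein added in the mitochondrial lineage, had 8.95, 8.96 and 8.86 with vitamin C against 9.19, 9.19 and 9.19 untreated (-0.26 ± 0.060, SE; limma, adjusted p = 0.0291). For none of these 3 did the groups overlap. Their calls are less firm: those of Mrpl27 and Mrpl50 were lost when any 1 of the 6 arrays was left out (adjusted p = 0.0575 to 0.108 and 0.0603 to 0.0879), and that of Mrpl45 held only without vitamin C replicate 1 (adjusted p = 0.0399, otherwise 0.0619 to 0.0765). Normalizing the quantiles again also ended the calls of Mrpl27 (adjusted p = 0.0523) and Mrpl50 (adjusted p = 0.0559).

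The 3 large-subunit genes that rose were Mrpl37, Mrpl1 and Mrpl2. Mrpl37, a protein without a bacterial counterpart, had signals of 9.49, 9.58 and 9.67 with vitamin C, against 9.17, 9.20 and 9.24 untreated. The difference was 0.38 ± 0.068 (SE), or 1.30-fold (limma, adjusted p = 0.0129), and held with each of the 6 arrays left out. Mrpl1 corresponds to the protein of the bacterial stalk beside the exit site for tRNA. It had 8.84, 8.77 and 8.94 with vitamin C against 8.56, 8.35 and 8.55 untreated (0.37 ± 0.083, SE; limma, adjusted p = 0.0282). Untreated replicate 2 was the lowest of its arrays. Mrpl2, whose bacterial counterpart is a core protein near the peptidyl transferase centre, had 9.53, 9.53 and 9.63 with vitamin C against 9.30, 9.30 and 9.35 untreated (0.25 ± 0.062, SE; limma, adjusted p = 0.0407). The groups of neither gene overlapped. The call of Mrpl1 held only without vitamin C replicate 2 (adjusted p = 0.0476, otherwise 0.0530 to 0.0875), and that of Mrpl2 was lost when any 1 array was left out (adjusted p = 0.0767 to 0.114) and with arrays centred on their medians (adjusted p = 0.0819).

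**Figure D2:**
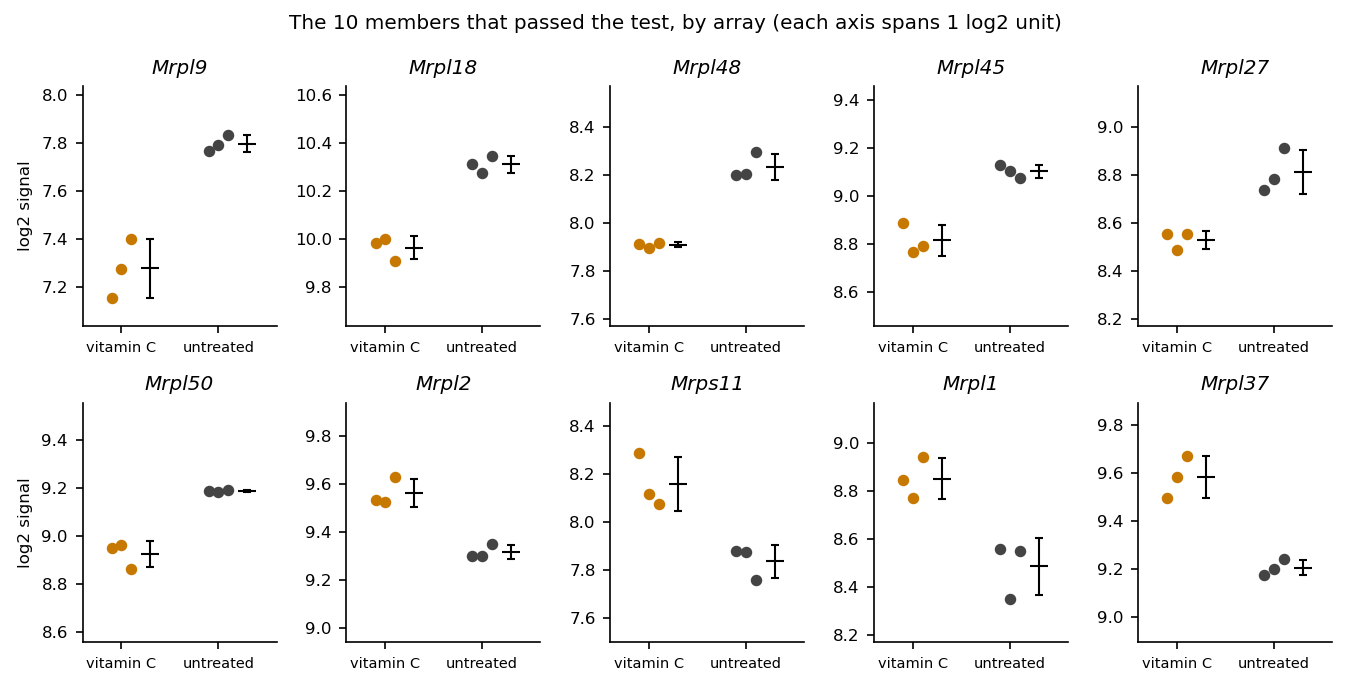
Log2 signal of the 10 members that passed the test in each array, vitamin C on the left and untreated on the right of each panel, with the mean and SD (n = 3) beside the points. Each vertical axis spans 1 log2 unit but starts at a different signal. In all 10 panels the groups do not overlap, and Mrpl9 shows the widest gap.

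In the small subunit 1 member was higher, 0 were lower and 28 did not pass (limma). Thus 3.45% were called, beside 13.2% of all genes and 22.4% of the genes in the members' range of signal. The median difference was -0.037, with the middle 50% of members between -0.072 and 0.10. At an unadjusted p under 0.05 there were 7 small-subunit members and 18 of the large subunit, beside 5777 of all 19938 genes and 2508 of the 5782 genes in the members' range of signal. Whether the subunits differ in their share of calls was not tested. The 1 gene that rose was Mrps11, a protein of the platform of the small subunit. Its signals were 8.29, 8.12 and 8.08 with vitamin C, against 7.88, 7.87 and 7.76 untreated. The groups did not overlap, and the difference was 0.32 ± 0.079 (SE), or 1.25-fold (limma, adjusted p = 0.0361). The call was lost when any 1 of the 6 arrays was left out (adjusted p = 0.0535 to 0.108).

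The largest differences that did not pass had both signs in each subunit. In the large subunit, Mrpl24 had signals of 9.46, 9.45 and 9.41 with vitamin C against 9.69, 9.59 and 9.76 untreated, a difference of -0.24 ± 0.067 (SE; limma, adjusted p = 0.0538). Mrpl36 differed by -0.19 and Mrpl49 by -0.15. On the other side Mrpl46, of the central protuberance, differed by 0.26 ± 0.082 (SE; limma, adjusted p = 0.0831), Mrpl20 by 0.19 and Mrpl52 by 0.17. In the small subunit, Mrps27, a protein with pentatricopeptide repeats, differed by -0.28 ± 0.084 (SE; limma, adjusted p = 0.0679). Mrps21 differed by -0.20 and Mrps12, the counterpart of the bacterial protein at the decoding centre, by -0.19. Mrps2 differed by 0.22 ± 0.070 (SE; limma, adjusted p = 0.0796), Mrps7, of the head of the subunit, by 0.20 and Mrps6 by 0.19. The arrays of the groups did not overlap for any of these 12 genes, which were picked for the size of their differences. The same held for 35% of all genes and for 3250 of the 5782 genes in the members' range of signal. Nothing is read from it. Under the 11 other settings without an array left out, Mrpl20 passed in 5, Mrpl24 in 4, Mrpl46, Mrps2 and Mrps6 in 3 each, Mrpl36, Mrps12 and Mrps27 in 2 each, Mrpl52, Mrps7 and Mrps21 in 1 each and Mrpl49 in 0.

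Mrpl12, the protein of the flexible stalk that recruits translation factors, is reported in human cells to bind the mitochondrial RNA polymerase too. Its signals were 10.24, 10.20 and 10.32 with vitamin C and 10.26, 10.30 and 10.24 untreated. The groups overlapped, the difference was -0.014 with a 95% interval of -0.16 to 0.13, and the gene did not pass (limma, adjusted p = 0.907). The genes with the brightest and dimmest probe sets in each subunit did not pass either. Of the brightest, Mrpl30 differed by 0.0027 and Mrps28 by 0.025, and of the dimmest, Mrpl17 differed by -0.065 and Mrps27 as given above.

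Proteins with and without bacterial counterparts were among those called. Of 28 large-subunit members numbered up to 36, most of which have bacterial counterparts, 2 were higher and 3 lower (median -0.056), and of 20 with higher numbers 1 was higher and 3 lower (median -0.016). Of 16 small-subunit members numbered up to 21, 1 was higher and 0 lower (median 0.020), and of 13 with higher numbers none passed (median -0.047; 1 at an unadjusted p under 0.05). The shares called, lower numbers first, were 17.9% and 20% in the large and 6.25% and 0% in the small subunit. Of all genes 13.2% were called, and of the genes in the members' range of signal 22.4%. The numbers are an imperfect guide: Mrps24 and Mrps28, for example, have bacterial counterparts with other numbers. Names and structure disagree for 3 more members. In mammalian structures Mrps30 and Mrps18a lie in the large subunit, and Mrps36 is now known as a component of the oxoglutarate dehydrogenase complex. With those 3 placed accordingly, the counts of calls stayed at 3 higher and 6 lower in the large and 1 higher and 0 lower in the small subunit.

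Each array can be read as a whole by the median deviation of its members from their mean over the 6 arrays. For the large subunit this was -0.042, -0.013 and -0.0047 in the vitamin C arrays, against 0.0058, 0.022 and 0.014 in the untreated arrays, so the groups did not overlap but lay less than 0.1 apart. For the small subunit it was -0.028, -0.023 and 0.025 with vitamin C and 0.0044, -0.0032 and 0.0075 untreated, and the groups overlapped. These values move with the normalization. Centring each array on its median put the medians at -0.096 for the large and -0.076 for the small subunit, with the median of all genes at -0.027, and removing a trend with probe-set brightness put them at -0.017 and -0.0045.

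For 8 members a second, dimmer probe set was measured, which the rule did not use. Mrpl27 was the 1 called member among them. Its second probe set had signals of 7.60, 7.61 and 7.68 with vitamin C and of 7.95, 7.87 and 7.87 untreated, again with no overlap. Its difference of -0.26 ± 0.059 (SE) passed when every probe set was tested (limma, adjusted p = 0.0314), beside -0.28 for the brighter one. Mrpl51 differed by -0.15 and -0.23 on its probe sets, Mrpl23 by -0.057 and -0.042, Mrps33 by -0.072 and -0.084, and Mrps36 by -0.12 and -0.13. The sign differed between the probe sets of Mrpl47 (0.030 and -0.033) and Mrps5 (-0.037 and 0.014), both within 1 SE of 0, and Mrpl41 differed by 0.060 and 0.011. The gene table names pseudogenes for Mrpl23, Mrpl27, Mrpl48, Mrpl51, Mrps33 and Mrps36, whose transcripts a probe could also catch. The locus of each probe set was not used here, so the values of these 6 genes, Mrpl27 and Mrpl48 included, are uncertain in that respect. A probe set that names both Ccdc142 and Mrpl53 could not be given to 1 gene and was left out; it differed by -0.050 ± 0.061 (SE).

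**Figure D3:**
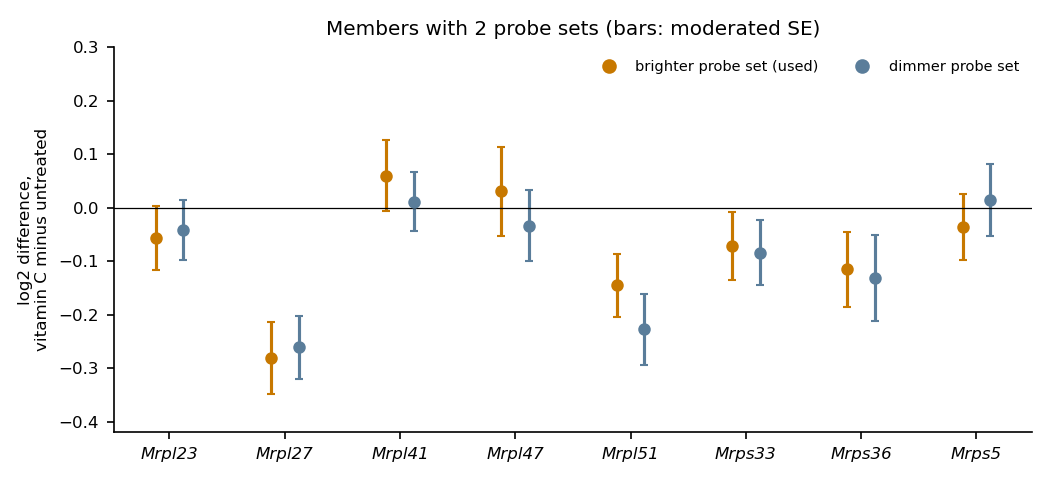
Difference, vitamin C minus untreated on the log2 scale, of the brighter probe set (used) and the dimmer probe set of the 8 members with a pair of them. Bars are moderated SEs. Both probe sets of Mrpl27 lie near -0.27, and those of the other 7 members lie between -0.23 and 0.060.

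Promoters of the family were read from RefSeq for assembly GRCm38.p6, as the 250 bases before and 50 after each annotated start. They matched by gene ID for 68 of 77 members, with 74 promoters. The 3 motifs searched are known from promoters of mitochondrial genes and were matched exactly on both strands: GCGCATGC of NRF1, CCGGAAGT of ETS factors such as GABP, and AAGATGGC of YY1. The NRF1 letters were in 10.8% of the members' promoters against 2.71% of all 32851 promoters, the ETS letters in 16.2% against 3.89%, and the YY1 letters in 16.2% against 2.75%. At least 1 of the 3 was in 29 members' promoters (39.2%), against 8.83% of all. Among members called lower it was in 4 of 9 promoters, among members called higher in 2 of 6, and among the others in 23 of 59, so each group of members held promoters with and without a match. By single motif, the NRF1 letters were in 1 and the ETS letters in 3 of the 9 promoters of members called lower and each in 0 of the 6 of members called higher, while the YY1 letters were in 0 of the 9 and 2 of the 6. These counts are too small to read a direction from. The promoters of 4 called members with a match are shown as examples of the 3 motifs, NRF1 and ETS in genes that fell and YY1 in genes that rose. Capitals mark the motif, and each run is given on the strand of its gene. In Mrpl9 the NRF1 letters overlap on both strands, beginning 28 and 26 bases before the start. In Mrpl18 the ETS letters begin 240 bases before the start. In Mrpl37 the YY1 letters begin 26 bases after the start, and in Mrps11 they lie on the opposite strand 107 bases before it.
Mrpl9 (lower, chr3:94443086-94443385, plus strand): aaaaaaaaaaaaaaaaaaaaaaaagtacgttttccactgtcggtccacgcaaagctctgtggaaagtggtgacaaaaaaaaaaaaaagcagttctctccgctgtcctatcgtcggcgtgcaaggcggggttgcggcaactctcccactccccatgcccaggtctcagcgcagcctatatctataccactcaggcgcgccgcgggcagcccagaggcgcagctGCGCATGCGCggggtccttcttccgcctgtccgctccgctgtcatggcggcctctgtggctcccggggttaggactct
Mrpl18 (lower, chr17:12916042-12916341, minus strand): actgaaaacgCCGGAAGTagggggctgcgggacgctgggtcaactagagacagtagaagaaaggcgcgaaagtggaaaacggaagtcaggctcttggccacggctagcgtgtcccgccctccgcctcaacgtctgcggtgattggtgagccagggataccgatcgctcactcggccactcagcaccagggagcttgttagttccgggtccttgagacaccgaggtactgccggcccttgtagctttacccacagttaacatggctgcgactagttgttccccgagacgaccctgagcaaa
Mrpl37 (higher, chr4:107066817-107067116, minus strand): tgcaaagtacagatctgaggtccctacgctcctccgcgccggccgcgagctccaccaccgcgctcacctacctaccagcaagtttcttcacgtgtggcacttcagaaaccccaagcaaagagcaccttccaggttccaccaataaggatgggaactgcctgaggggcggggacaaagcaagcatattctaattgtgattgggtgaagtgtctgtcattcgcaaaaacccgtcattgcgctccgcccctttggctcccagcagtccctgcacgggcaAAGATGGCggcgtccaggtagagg
Mrps11 (higher, chr7:78782881-78783180, plus strand): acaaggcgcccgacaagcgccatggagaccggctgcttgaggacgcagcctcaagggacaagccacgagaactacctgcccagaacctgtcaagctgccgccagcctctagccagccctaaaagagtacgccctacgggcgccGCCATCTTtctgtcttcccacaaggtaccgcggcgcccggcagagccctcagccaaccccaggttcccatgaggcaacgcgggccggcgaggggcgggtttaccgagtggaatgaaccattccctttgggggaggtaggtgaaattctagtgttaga
A match describes letters and is not a bound site. None of the 3 motifs was found in the windows of Mrpl1, which rose, or of Mrpl12, which did not pass.

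Genes for these factors were measured too, in a list of 13 regulators of mitochondrial gene expression. Of these, 4 rose, 0 fell and 9 did not pass, with a median difference of 0.11. Thus 30.8% were called, beside 13.2% of all genes and 22.4% of the genes in the members' range of signal. The mean signals of this list, 3.96 to 9.60, lay partly below that range. Myc, a transcription factor that drives ribosome and mitochondrial biogenesis in many cells, had 6.99, 6.92 and 6.90 with vitamin C against 6.33, 6.31 and 6.37 untreated. The groups stood well apart, by 0.60 ± 0.060 (SE), or 1.51-fold (limma, adjusted p = 0.00152). Its relative Mycn rose by 0.33 ± 0.056 (SE; limma, adjusted p = 0.0108), Yy1 by 0.36 ± 0.070 (SE; limma, adjusted p = 0.0161) and Hif1a, which encodes a subunit of the hypoxia-inducible factor, by 0.29 ± 0.058 (SE; limma, adjusted p = 0.0180). The calls of Myc and Mycn held with each array left out. That of Yy1 was kept only without untreated replicate 3 or vitamin C replicate 3, and that of Hif1a only without untreated replicate 2 or vitamin C replicate 3 (highest adjusted p = 0.0576 and 0.0619). Nrf1 itself differed by -0.059 ± 0.063 (SE), and Gabpa, the DNA-binding subunit of GABP, by 0.18 ± 0.065 (SE; limma, adjusted p = 0.109).

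Many mitochondrial genes share a promoter region with a neighbour transcribed the other way. A total of 26 members had such a head-to-head neighbour with starts at most 1000 bases apart, a distance chosen after the values were seen, and 23 pairs were measured on both sides. Both genes passed in 0 of these 23 pairs, beside 20 of the 724 other measured head-to-head pairs (limma). A share of 0 in 23 is near that of the other pairs, and nothing is read from it. Mrps11 and Mrpl46 are each other's neighbour, with starts 42 bases apart. They differed by 0.32 and 0.26, and Mrpl46 did not pass. In 3 other settings both genes of this pair passed, with adjusted p-values of Mrpl46 of 0.0179 (eBayes with trend and robust spread), 0.0264 (genes above the median signal) and 0.0404 (quantiles normalized again). The called member Mrpl37 (0.38) faces Cyb5rl (0.023), Mrpl18 (-0.35) faces Tcp1 (-0.076), Mrpl2 (0.25) faces Klc4 (-0.056), Mrpl50 (-0.26) faces Zfp189 (-0.22) and Mrpl27 (-0.28) faces Eme1 (-0.34). None of those 5 neighbours passed. Eme1 did pass in 3 of the 11 other settings (limma, lowest adjusted p = 0.0157). With 1 of the 6 arrays left out, Eme1 and Zfp189 each passed in 1 fit. Conversely Ncapd2, a condensin gene, fell by 0.56 (limma, adjusted p = 0.00184) beside Mrpl51, and Ppp1r10, a regulator of protein phosphatase 1, rose by 0.42 (limma, adjusted p = 0.00493) beside Mrps18b, and neither Mrpl51 nor Mrps18b passed. Mrpl51 did pass in 1 of the 11 other settings, eBayes with trend and robust spread (limma, adjusted p = 0.00861). Ncapd2 passed in all 11, so both genes of that pair passed in that setting. In the main fit, counting Mrps11 beside Mrpl46, 3 of 23 neighbours (13.0%) passed, near the 13.2% of all genes. Spearman's rho between the differences was 0.35 over the 23 pairs, which share all 6 arrays.

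**Figure D4:**
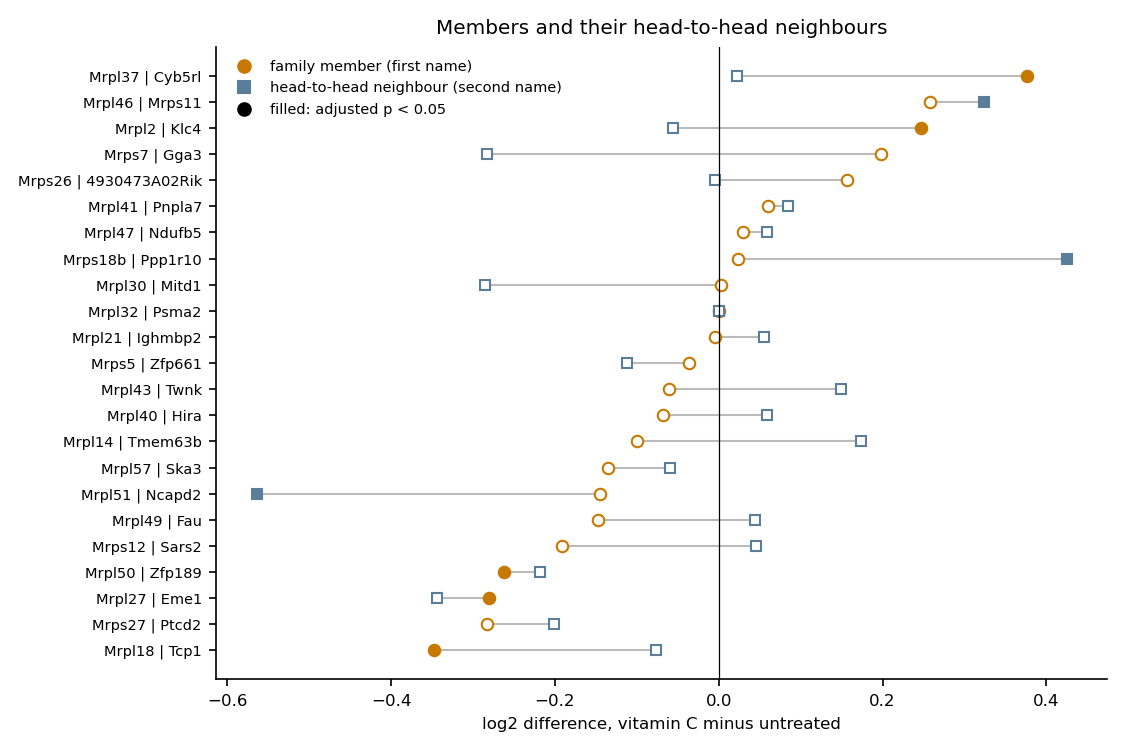
Difference, vitamin C minus untreated on the log2 scale, of each member (circles) and of its head-to-head neighbour (squares), 1 measured pair per line, ordered by the member's difference. Filled marks passed the limma test. No pair has both marks filled. In 3 other settings Mrpl46 and Mrps11 both passed, and in 1 other setting Mrpl51 and Ncapd2 both passed. Eme1, the neighbour of Mrpl27, passed in 3 of the 11 other settings.

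The rest of the mitochondrial translation system was described from lists of its parts. The shares called in these lists stand beside 13.2% of all genes and 22.4% of the genes in the members' range of signal. The members' range (7.23 to 10.95) is not that of every list. Mean signals lay between 5.64 and 8.24 for the genes that charge mitochondrial tRNAs. They lay between 8.16 and 12.44 for the nuclear genes of the respiratory chain and ATP synthase. Whether any list differs from these backgrounds was not tested. The 4 measured mitochondrial ribosomal proteins with other symbols did not pass (limma; 0 at an unadjusted p under 0.05): Dap3 differed by -0.15, Chchd1 by -0.040, Gadd45gip1 by -0.027 and Ptcd3 by 0.0059. Of 16 translation factors 3 fell and 0 rose (18.75% called, median -0.11). These were the release factors Mtrf1l (-0.35 ± 0.069, SE; limma, adjusted p = 0.0178) and Mtrf1 (-0.25 ± 0.058, SE; limma, adjusted p = 0.0335) and the elongation factor Tufm (-0.31 ± 0.073, SE; limma, adjusted p = 0.0337). Tufm had 8.89, 8.98 and 8.77 with vitamin C against 9.15, 9.18 and 9.23 untreated, with no overlap. Of 27 genes of ribosome assembly and rRNA modification 5 fell and 0 rose (18.5% called, median -0.082). Among them were Tfb1m, which methylates the rRNA of the small subunit (-0.43 ± 0.078, SE; limma, adjusted p = 0.0129), the pseudouridine synthase Rpusd4 (-0.45 ± 0.11, SE; limma, adjusted p = 0.0350) and the assembly GTPase Mtg1 (-0.40 ± 0.10, SE; limma, adjusted p = 0.0412). Tfb1m had 7.31, 7.53 and 7.45 with vitamin C, against 7.85, 7.93 and 7.80 untreated. Of the genes just named, Tfb1m alone passed with each of the 6 arrays left out. Mtrf1l and Tufm passed only without vitamin C replicate 2, Rpusd4 only without vitamin C replicate 1, and Mtrf1 and Mtg1 in no such fit (highest adjusted p = 0.0608, 0.101, 0.0991, 0.103 and 0.118 in that order).

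Of 19 genes that charge mitochondrial tRNAs 3 fell and 0 rose (15.8% called, median -0.038). These were Gatc, a subunit of the tRNA amidotransferase (-0.37), and the isoleucyl- and valyl-tRNA synthetases Iars2 (-0.30) and Vars2 (-0.33). Gatc passed in 2 of the 6 fits with an array left out, without replicate 2 of either group, and Iars2 and Vars2 in 1, without untreated replicate 2 (highest adjusted p = 0.0585, 0.0797 and 0.0958). Of 15 genes of mitochondrial DNA maintenance, transcription and RNA processing 2 rose and 3 fell (33.3% called, median -0.032). Pnpt1, which encodes a polynucleotide phosphorylase, had 9.01, 9.02 and 9.05 with vitamin C against 8.61, 8.64 and 8.72 untreated, and rose by 0.37 ± 0.061 (SE; limma, adjusted p = 0.00916). Hsd17b10, a subunit of the mitochondrial RNase P, fell by 0.39 ± 0.068 (SE; limma, adjusted p = 0.0118), and both held with each array left out. Polg2, the accessory subunit of the mitochondrial DNA polymerase, fell by 0.50 ± 0.11 (SE; limma, adjusted p = 0.0231), and its call held only without vitamin C replicate 1 (adjusted p = 0.0109, otherwise up to 0.0679).

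The products of mitochondrial translation join nuclear-encoded subunits of the respiratory chain and ATP synthase. Of 71 nuclear genes of the respiratory chain and ATP synthase 5 fell and 0 rose (7.04%), with a median difference of 0.00005. The list includes succinate dehydrogenase, whose subunits are all nuclear-encoded and do not join such products. Its genes Sdha and Sdhc were among those that fell. The largest calls were Cox7a1 of cytochrome c oxidase (-0.57), Ndufv3 of complex I (-0.49) and Sdha of succinate dehydrogenase (-0.41), each of which held with every array left out (highest adjusted p = 0.0238 by limma). Of 16 genes of protein import and mitochondrial chaperones 0 passed (limma; 4 at an unadjusted p under 0.05), with a median of 0.0065. Of 53 cytosolic ribosomal protein genes 0 passed (limma; 0 at an unadjusted p under 0.05), with differences from -0.068 to 0.11 and a median of 0.0030. The mitochondrial family, by comparison, spanned differences from -0.52 to 0.38. Mean signals of the cytosolic genes lay between 6.67 and 13.39, where the highest of all genes was 13.47. Most of the cytosolic genes were brighter than any member (7.23 to 10.95). Whether the spread of the 2 families differs, and the part of brightness in it, was not tested.

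**Figure D5:**
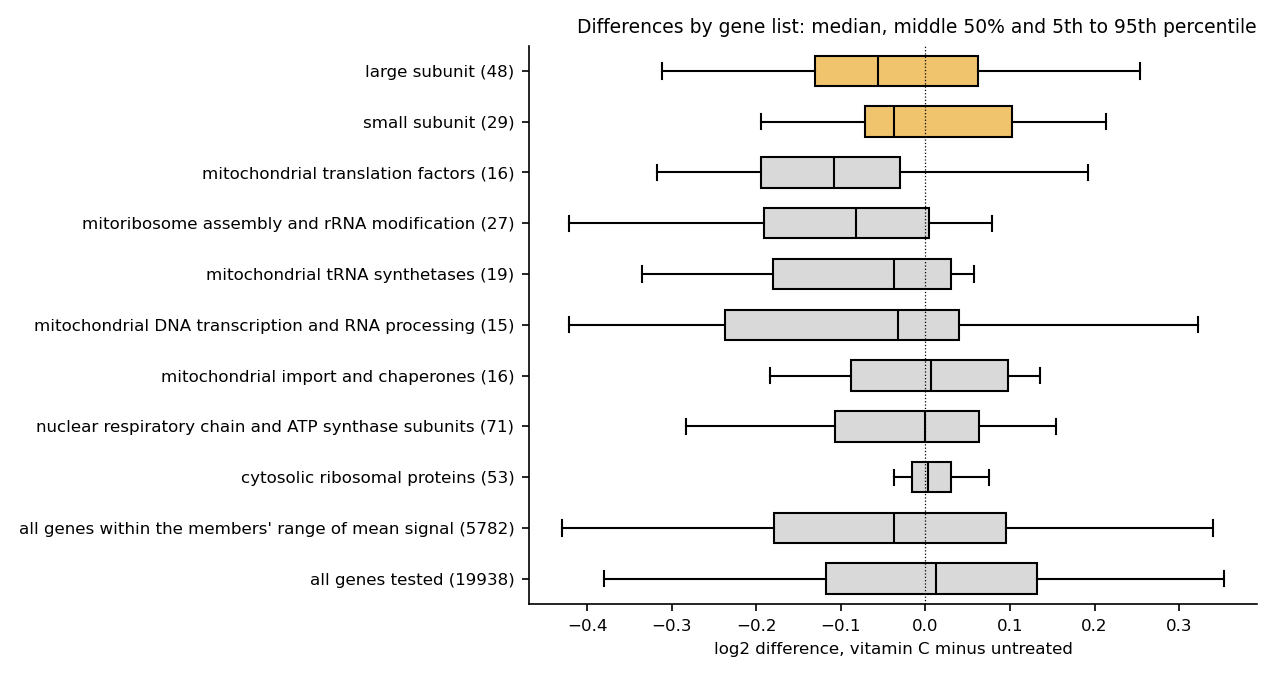
Differences, vitamin C minus untreated on the log2 scale, for the members by subunit (coloured) and for related lists (grey), as the median (line), the middle 50% (box) and the 5th to 95th percentile (whiskers), with the number of genes in brackets. Both subunits have medians near those of all genes in the same range of signal (-0.037). The cytosolic ribosomal proteins have the narrowest range of the 11 sets drawn, and most of them were brighter than any member.

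The cells carried the markers of ES cells, and markers of other cell types moved between the groups. Of 10 ES markers 4 rose and 0 fell, and Nanog (0.29, limma, adjusted p = 0.0168) was among those that rose. Of the 10 differences 7 were positive and 3 negative. The negative ones were Fgf4 (-0.13), Pou5f1 (-0.12) and Esrrb (-0.048), which did not pass. With 1 array left out only 0 to 2 of the ES markers passed, and Nanog passed only without replicate 2 of either group (otherwise adjusted p = 0.0530 to 0.0577). The lowest of the 10 signals in an array was 8.95 to 9.02 with vitamin C and 8.67 to 8.76 untreated. Summed linear signal over the 10 was 13437 to 13651 with vitamin C and 12213 to 12567 untreated. Of 10 fibroblast markers 8 rose and 1, Pdgfrb (-0.32), fell (7 to 8 and 0 to 1 with 1 array left out). The sums of the 10 were 839 to 874 with vitamin C against 548 to 573 untreated. Their lowest signals, those of Lum, were 3.40 to 4.01 with vitamin C and 2.84 to 3.14 untreated. In each group these lay under the lower quartiles of its own arrays (4.03 to 4.05 with vitamin C and 3.992 to 3.998 untreated). Not all were so dim: 6 of the 10 had mean signals above the median gene. Acta2, with the largest rise, had a mean of 7.51 with vitamin C against 5.68 untreated. Of 7 primitive endoderm markers 2 rose and 0 fell (sums of 403 to 413 with vitamin C against 332 to 348 untreated). Of 7 trophectoderm markers 1 rose and 2 fell, against 0 and 1 to 2 with 1 array left out (sums of 798 to 833 with vitamin C against 885 to 931 untreated). The shares called were 40% of the ES, 90% of the fibroblast, 28.6% of the primitive endoderm and 42.9% of the trophectoderm markers. Of all genes 13.2% were called. The part of these markers in the differences of the mitochondrial ribosomal protein genes was not tested.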

How the data were processed

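The data were 6 Affymetrix arrays of 1 colour, 3 for vitamin C and 3 for untreated cells, grouped by sample title. Per the labels' protocols, column-purified total RNA was amplified with a whole-transcriptome kit and biotin-labelled. The authors deposited 1 log2 value a probe set, made with RMA per the submitters' processing notes. The log2 scale was inferred from the values' range, while software and version were not given in the sources used here. RMA includes quantile normalization in general, so a shift common to the whole transcriptome would not show, and differences of dim probe sets are compressed. The number of arrays limits the precision.

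Of 35557 probe sets, 21789 had 1 symbol, 1621 had several and 12147 are unnamed here; 19938 genes were tested, 19855 matched the gene table (GRCm38.p6) by gene ID, as did all 77 members. The group contrast came from lmFit and eBayes (limma 3.58.1 under R 4.3.3; two-sided, no covariate), tested on simulated data. All adjusted p-values in the text are limma's with Benjamini-Hochberg adjustment over all genes tested in that fit, and folds are ratios of the group means, larger over smaller. Intervals cover 95%. Promoter motifs were matched by exact letters. Figures were drawn with matplotlib 3.10.9. Alternatives changed the spread model, normalization, dim-gene filter, probe sets, array weights, replicate block and arrays included.

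The members, lists, tests and settings were chosen with earlier results of these data known. Members named in the text were all called ones, the 3 largest differences of each sign that did not pass in each subunit, Mrpl12, the brightest and dimmest of each subunit and those with several probe sets; of related lists, up to 3 called genes with the smallest p and all ribosomal proteins with other symbols. Hif1a, Nrf1, Gabpa, the neighbours and the members discussed for their names or subunit were added after their values were seen.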

Additional observations from a re-analysis of the deposited data

How the results depend on the processing

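Each result was recomputed under 11 other settings, with each of the 6 arrays left out, and, as a choice made after seeing the data, with subunits as in the mammalian structure. No difference that passed the test, among the genes named, changed sign in any of these. Mrpl9, Mrpl18, Mrpl37 and Mrpl48 passed in all 11 settings, and the other 6 called members in 7 to 10. An eBayes fit with a trend and robust spread called 25 members (large 7 higher and 11 lower, small 4 and 3) and 1731 higher and 2420 lower genes in all (20.8%). Testing only genes above the median signal called 19 of 77 members (large 6 higher and 8 lower, small 3 higher and 2 lower). Beside these stood 3552 of the 9969 genes then tested (35.6%, 1312 higher and 2240 lower). Quantile normalization again called 11 (large 5 higher and 4 lower, small 2 higher and 0 lower), 8 of them among the 10. Without moderation 667 genes were higher and 878 lower, and 7 of the 10 remained. The medians of the large and small subunit were -0.096 and -0.076 with arrays centred, -0.011 and -0.0026 with quantiles normalized again, and -0.017 and -0.0045 with the trend against signal subtracted. With the replicate block, the large subunit had 2 higher and 3 lower and the small 0 in either direction. In all, 763 genes were then higher and 960 lower. The fit with the block called 5 members, all among the 10. Deviations of same-numbered arrays had correlations of 0.052, 0.0096 and -0.024, and 3 of 6 arrays correlated best with their own number. No label ties a number to a batch, day or culture, so whether same-numbered arrays were paired is unknown. With 1 array left out, 3 to 5 members passed, all among the 10: large 1 to 2 higher and 2 to 4 lower, small 0 in either direction, medians -0.049 to -0.019 and -0.059 to -0.00028, and 663 to 733 genes higher and 820 to 988 lower. Fewer arrays enter these fits.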
